A study of Mus musculus with 18 samples.

Results

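Hox genes encode homeodomain transcription factors that give cells their position along the body axis. In the mouse they lie in 4 clusters, HoxA, HoxB, HoxC and HoxD. Within a cluster the members are numbered by paralog group, from group 1 at the 3' end to group 13 at the 5' end. During normal development the 3' members are typically activated earlier and nearer the head, and the 5' members later and nearer the tail. In embryonic stem cells the clusters are a textbook target of PRC2, the Polycomb complex whose catalytic subunit Ezh1 or Ezh2 places methyl groups on lysine 27 of histone H3. EED is the core PRC2 subunit that binds this mark and stimulates the enzyme.

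All gene names made of Hox, a cluster letter and a paralog number were taken, in both deposited count tables. They gave 39 coding Hox genes among the 54429 gene names of the larger table, with 11 members in HoxA, 10 in HoxB, 9 in HoxC and 9 in HoxD. Noncoding RNAs of the clusters were not members.

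Expression was measured by RNA-seq of total RNA in 18 libraries of mouse cells, in 9 groups of 2. FLAG-WT cells were mouse embryonic stem cells (mESCs) with a knock-in of FLAG-tagged EED of wildtype sequence, and K19R cells carried a knock-in of FLAG-tagged EED with the K19R substitution, an arginine in place of a lysine. Both lines were sampled as mESCs in leukemia inhibitory factor (LIF) with 2i, a pair of inhibitors of MEK and GSK3 (day 0), and as embryoid bodies, floating aggregates in which mESCs differentiate, without LIF and 2i (days 2, 6 and 10). The remaining group was wildtype mESCs in LIF without a named knock-in or 2i. Both knock-in lines carry the FLAG tag, so FLAG-WT is the control for K19R. How many clones stand behind each line is not stated. No label says whether the 2 libraries of a group are separate cultures, and the p-values therefore rest on a spread between libraries that may be technical.

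The promoters of Hoxd13, Hoxb4 and Hoxb8 are printed because these genes follow the main patterns below: Hoxd13 had its highest level in the knock-in mESCs, Hoxb4 was the highest Hox gene per kilobase in FLAG-WT embryoid bodies of days 6 and 10, and Hoxb8 was near 0 in mESCs and appeared in embryoid bodies. Each sequence is the 250 bases before the start of the gene in RefSeq (GRCm38.p6), on the gene's own strand, which is the plus strand in each case. Capitals mark CG dinucleotides. Hoxd13 lies on chromosome 2 (chr2:74667975-74668224), Hoxb4 on chromosome 11 (chr11:96318017-96318266) and Hoxb8 also on chromosome 11 (chr11:96281655-96281904).
Hoxd13: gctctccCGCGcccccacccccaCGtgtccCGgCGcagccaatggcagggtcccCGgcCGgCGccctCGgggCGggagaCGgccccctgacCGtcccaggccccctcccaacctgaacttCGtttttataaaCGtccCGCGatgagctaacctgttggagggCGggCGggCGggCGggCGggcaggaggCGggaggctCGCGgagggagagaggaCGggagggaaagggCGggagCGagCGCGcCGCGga
Hoxb4: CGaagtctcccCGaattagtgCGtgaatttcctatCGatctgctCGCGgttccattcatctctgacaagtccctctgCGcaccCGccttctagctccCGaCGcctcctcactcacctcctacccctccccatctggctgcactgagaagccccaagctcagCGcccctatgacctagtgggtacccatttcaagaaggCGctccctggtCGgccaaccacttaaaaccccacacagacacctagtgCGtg
Hoxb8: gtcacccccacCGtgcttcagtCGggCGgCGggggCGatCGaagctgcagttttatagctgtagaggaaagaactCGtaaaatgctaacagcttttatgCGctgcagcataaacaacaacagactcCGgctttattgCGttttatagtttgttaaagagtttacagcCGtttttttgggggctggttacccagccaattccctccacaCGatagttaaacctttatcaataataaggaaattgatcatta

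The Hoxd13 promoter held 31 CG, that of Hoxb4 14 and that of Hoxb8 12. RefSeq promoters were matched for 22 of the 39 members. For each Hox gene only the furthest downstream start listed was used, whereas the promoters of all genes include every listed start. Their median was 13 CG per 250 bases, against 6 over all 32851 promoters, and their median GC content was 59.2% against 52.4%. The motif TATAAA, on either strand, was found in 18.2% of the Hox promoters and 12.4% of all promoters, and CCAAT in 63.6% and 33.8%. The letters TGATNNAT, a core read by Pbx and Hox proteins together, were found in 18.2% and 7.7%. The 6 matched members whose highest group mean was at day 0 had a median of 16.5 CG, and the 16 with their highest mean in embryoid bodies 12.5. Those 6 were Hoxc4, Hoxd9, Hoxd10, Hoxd11, Hoxd12 and Hoxd13, so mostly HoxD genes. Hoxb13, Hoxc5, Hoxc12 and Hoxc13, also highest at day 0, had no matched promoter. These are descriptions of 22 promoters, with no test.

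Libraries held 14190166 to 37375083 counts. Levels are CPM, the counts of a gene as a share of its library's total after TMM scaling (trimmed mean of M-values), and levels of different genes are compared only as CPM per kilobase of exon. The TMM factors were 0.796 to 0.829 in FLAG-WT at days 6 and 10 and 0.986 to 1.09 elsewhere. The pluripotency markers were all detected in the 4 knock-in mESC libraries, with a summed level of 5121 to 5378 CPM. The second FLAG-WT library of day 0 held 102 CPM of 10 endoderm markers against 13.96 CPM in the first. Eed was at 176 and 183 CPM in FLAG-WT and 181 and 201 CPM in K19R at day 0, and among days 0 to 10 it passed between the lines at day 2 alone, as lower in K19R (-0.46 ± 0.08 SE on the log2 scale, edgeR adjusted p = 2.2e-05). Gene-level counts cannot tell the K19R allele from the wildtype one, and so give no check of the labels. In these bulk samples, fewer cells expressing a gene and less RNA per cell cannot be told apart.

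Hox genes were low in all libraries. No member exceeded 13.9 CPM in any library. The filter on low counts kept 30 members (9 of HoxA and 7 each of HoxB, HoxC and HoxD), and these entered the tests. The 9 members left out were Hoxa2, Hoxa6, Hoxb1, Hoxb2, Hoxb5, Hoxc5, Hoxc8, Hoxd3 and Hoxd4. None of these exceeded 0.823 CPM in any library, the value of Hoxa6 in the second K19R library of day 2. The counts were made without strand, and reads over several genes were left out. Counts are therefore uncertain for members whose exons overlap other genes, foremost Hoxd3 (62.8% of exonic bases), Hoxb3 (52.9%, with Hoxb3os), Hoxd4 (52.3%), Hoxa11 (35.0%, with Hoxa11os), Hoxb2 (27.3%), Hoxa3 (27.1%) and Hoxa7 (20.4%, with Hoxaas3).

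**Figure D1:**
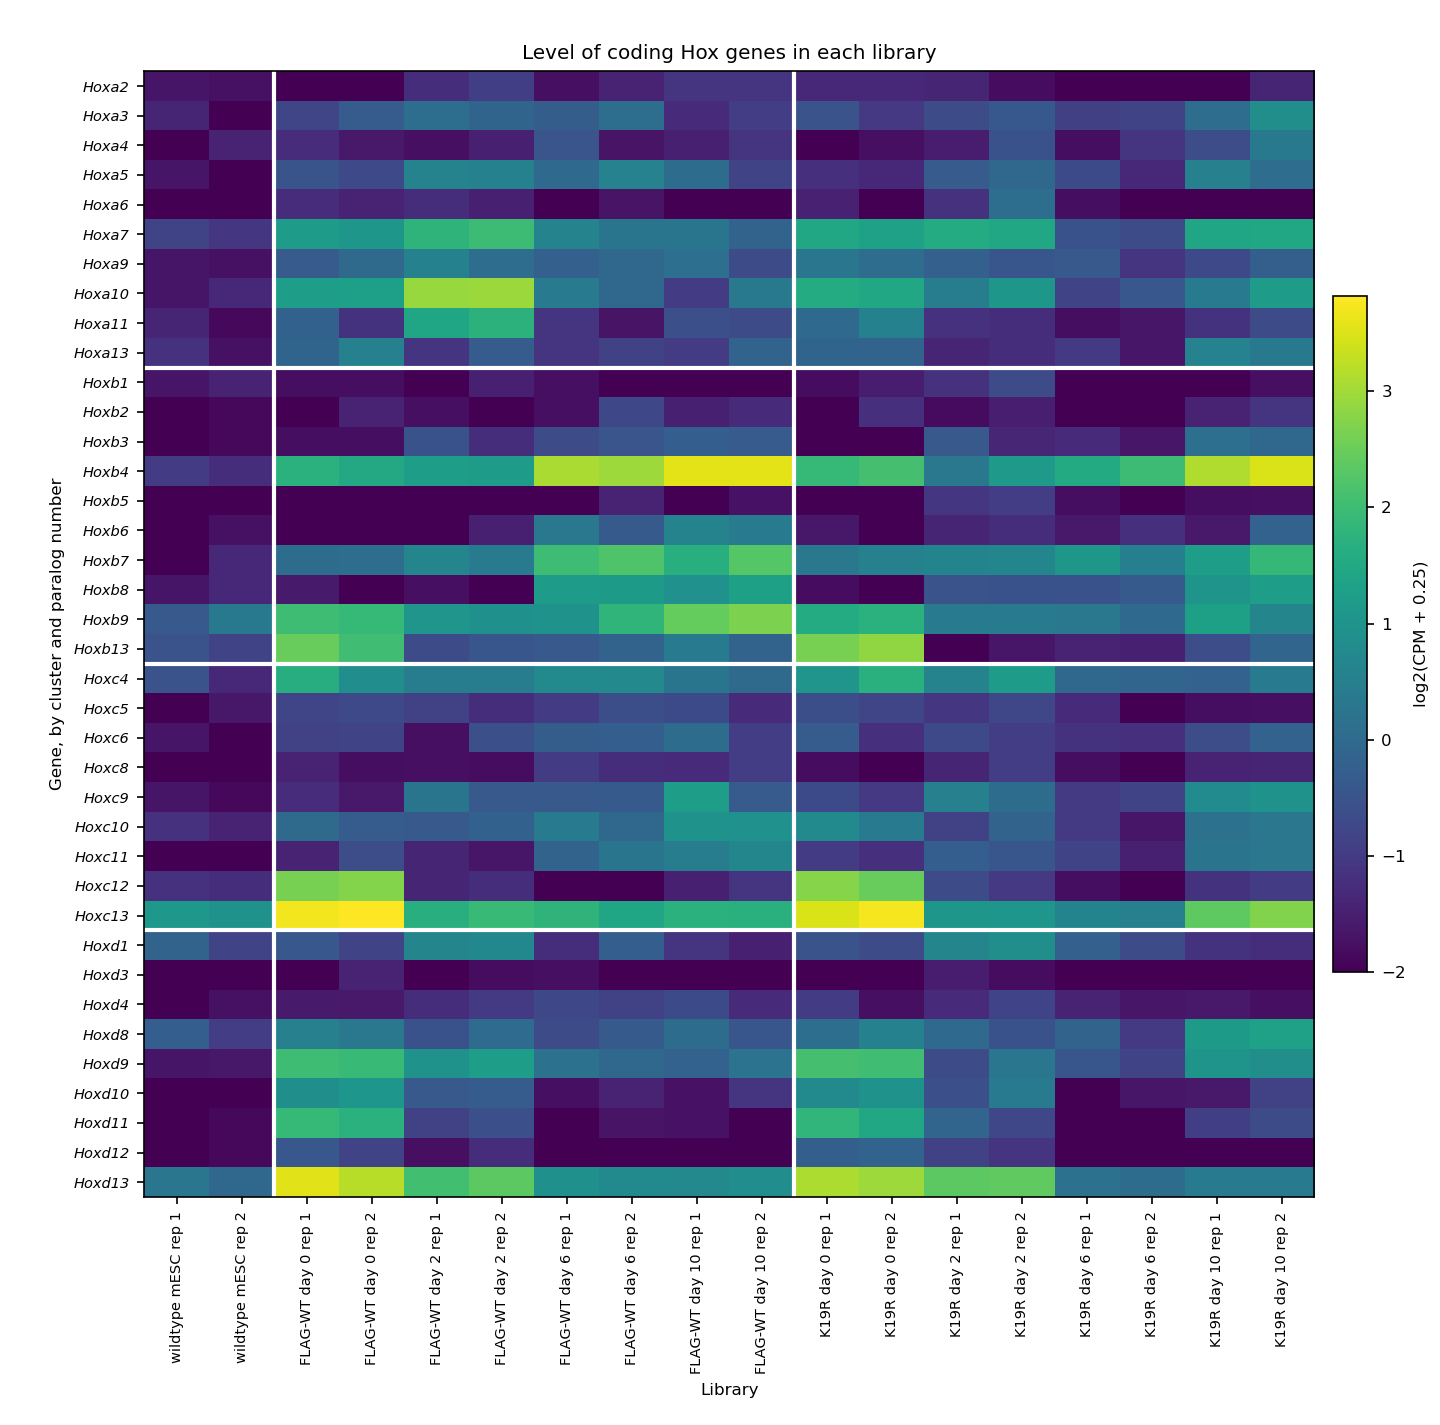
Level of 38 Hox genes (rows, by cluster and paralog number) in each of the 18 libraries (columns), as log2(CPM + 0.25). Hoxc13, Hoxc12 and Hoxd13 are bright at day 0 of both knock-in lines, and Hoxb4 is bright at days 6 and 10 of FLAG-WT and day 10 of K19R.

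The knock-in mESCs expressed mainly 5' Hox genes, at similar levels in both lines. Hoxc12, Hoxc13 and Hoxd13, which are members of the most posterior paralog groups, led in FLAG-WT at day 0 with 5.99, 5.43 and 4.10 CPM per kilobase, and together with Hoxb13 at 2.07 they stood above the other 35 members. In K19R the same 4 genes led, with 5.70, 4.89, 3.21 and 2.91 CPM per kilobase. The 12 members of paralog groups 10 to 13 made up 71.1% of the summed Hox level per kilobase in FLAG-WT and 69.1% in K19R. By cluster, HoxC held 43.9% of the sum in FLAG-WT, HoxD 28.1%, HoxB 17.3% and HoxA 10.8%. The summed level was 30.9 and 28.7 CPM per kilobase in the FLAG-WT libraries and 30.2 and 30.1 in the K19R libraries.

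Hoxc13, known for its role in hair and nail formation, was at 12.9 and 13.9 CPM in FLAG-WT and 10.9 and 13.2 CPM in K19R. Hoxd13, a regulator of digit development, was at 11.5 and 8.87 CPM in FLAG-WT and 8.38 and 7.57 CPM in K19R. Hoxb13, known from prostate and tail development, was at 5.25 and 3.87 CPM in FLAG-WT and 5.89 and 6.96 CPM in K19R. The FLAG-WT and K19R ranges overlapped for Hoxc13 and did not for Hoxd13 and Hoxb13. Hoxc12 was at 5.96 and 6.39 CPM in FLAG-WT and 6.48 and 5.26 CPM in K19R, again with overlap.

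At day 0 no tested member of 30 passed in K19R against FLAG-WT by edgeR's quasi-likelihood test with Benjamini-Hochberg adjustment over 19092 genes, of which 10.5% passed in either direction, 5.51% as higher and 4.98% as lower. At an unadjusted p under 0.05, 3 members were higher and 1 lower, and DESeq2 called 0. The median log2 change of the tested members was 0.06, against 0 over all genes. With only the 4 libraries of the comparison in the fit, Hoxb13 passed as higher in K19R (log2 change 0.49, edgeR adjusted p = 0.0351).

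The wildtype mESCs had a far lower summed Hox level than the FLAG-WT mESCs, most so at the 5' end. Their summed level was 4.13 and 3.64 CPM per kilobase, and all 12 tested members of paralog groups 10 to 13 were lower (median log2 change -3.87). Of groups 5 to 9, 8 of 11 tested members were lower (median -2.85), and of groups 1 to 4, 3 of 7 (median -1.01). The summed level of group 1 was not lower in wildtype mESCs. Hoxc13 was at 1.88 and 1.72 CPM and Hoxd13 at 0.974 and 0.713 CPM, each below both FLAG-WT libraries. The log2 change was -2.91 ± 0.19 SE for Hoxc13 (edgeR adjusted p = 1.19e-13) and -3.67 ± 0.22 for Hoxd13 (adjusted p = 3.85e-14). Hoxc12 was at 0.195 and 0.172 CPM (log2 change -5.07 ± 0.35, adjusted p = 1.1e-12). Hoxd9, a member of the central to posterior groups, was at 0.0649 and 0.0738 CPM against 3.79 and 3.55 CPM (log2 change -5.59 ± 0.46, adjusted p = 2.41e-11). Hoxd11, which acts in the forelimb skeleton and kidney, had 1 count in the wildtype mESCs and 159 in FLAG-WT, a ratio of 182 (95% interval 32.2 to 7220, counting error only). Hoxd10 had 0 counts against 85, at least 12.9-fold lower (with 3 counts taken as the floor of each library).

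In that comparison 23 of 30 tested members were lower, where 32.5% of all 19296 tested genes were lower, 32.4% higher and 64.9% changed in either direction. None was higher by edgeR, at an unadjusted p under 0.05 or by DESeq2. The median log2 change of the members was -3.23, or -3.06 with genes at 0 counts in a group set to their bound, against 0 over all genes. Without the deeper wildtype library (37375083 counts), 18 members passed as lower. Wildtype mESCs differed from FLAG-WT mESCs in the knock-in, the 2i inhibitors and the counting run, and these cannot be told apart.

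**Figure D2:**
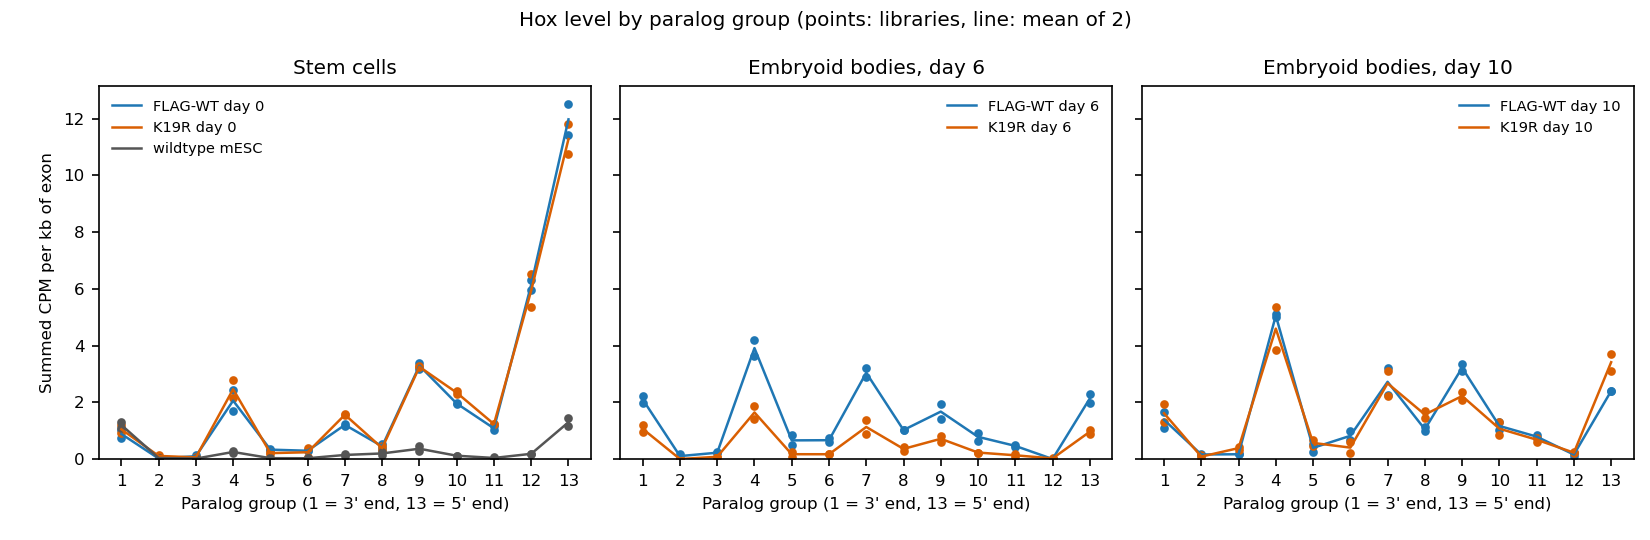
Summed Hox level per kilobase by paralog group, from group 1 at the 3' end to group 13 at the 5' end, in mESCs, at day 6 and at day 10. Points are libraries and lines join the means of 2. In the knock-in mESCs group 13 reaches 11.98 (FLAG-WT) and 11.3 (K19R) CPM per kilobase, against 1.30 in wildtype mESCs.

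In FLAG-WT embryoid bodies of day 2, most tested members of groups 10 to 13 fell from their day 0 level. The members that rose were 5 HoxA genes, Hoxa10 and Hoxa11 of those groups among them, and Hoxb3, Hoxc9 and Hoxd1. Hoxa10, a regulator of limb and reproductive tract patterning, went from 2.13 and 2.20 CPM to 7.27 and 7.49 CPM (log2 change 1.77 ± 0.28 SE, edgeR adjusted p = 5.26e-06). Hoxa11, its neighbour with related roles, went from 0.625 and 0.200 CPM to 2.48 and 3.07 CPM (log2 change 2.75 ± 0.42, adjusted p = 3.69e-06). Hoxd1 went from 0.500 and 0.319 CPM to 1.31 and 1.39 CPM (log2 change 1.71 ± 0.44, adjusted p = 0.00152). For each of these 3 genes, which had passed in a test of the same libraries, both day 2 libraries lay above both day 0 libraries.

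Over the same interval Hoxc12 went from 5.96 and 6.39 CPM to 0.131 and 0.174 CPM (log2 change -5.27 ± 0.37 SE, edgeR adjusted p = 4.72e-12). Hoxc13 went to 2.92 and 3.52 CPM (log2 change -2.04 ± 0.17), Hoxb13 to 0.392 and 0.488 CPM (-3.34 ± 0.33) and Hoxd13 to 3.92 and 4.88 CPM (-1.201 ± 0.171). All 4 posterior genes, which had passed in a test of the same libraries, were below both day 0 libraries. In all, 8 of 30 tested members were higher and 11 lower, against 28.5% and 27.6% of all genes (56.1% in either direction). Of the 12 tested members of groups 10 to 13, 8 were lower and 2 (Hoxa10 and Hoxa11) higher. HoxA made up 45.5% of the summed Hox level per kilobase at day 2, with 5 of its 9 tested members higher (among them Hoxa5, Hoxa7, Hoxa10 and Hoxa11) and 1 lower (Hoxa13). Without the first FLAG-WT library of day 2, 7 members passed as lower.

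By day 6 the FLAG-WT profile had passed from HoxA to HoxB. Hoxb4, a regulator best known from blood stem cells and the neck vertebrae, went from 2.13 and 2.06 CPM at day 2 to 8.21 and 7.55 CPM (log2 change 1.91 ± 0.23 SE, edgeR adjusted p = 2.5e-08). Hoxb7 went from 1.31 and 1.05 CPM to 3.78 and 4.42 CPM (log2 change 1.80 ± 0.30, adjusted p = 5.84e-06). Hoxb8, known from spinal cord and microglia, stood at 2.09 and 2.01 CPM at day 6, where its 82 counts against 1 at day 2 gave a ratio of 106 (95% interval 18.5 to 4240). Hoxb6 had 3 counts and then 32, a ratio of 13.8 (4.31 to 70.4).

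Hoxa10 fell back to 1.04 and 0.708 CPM at day 6 (-3.04 ± 0.33 SE on the log2 scale, edgeR adjusted p = 6.98e-09) and Hoxa11 to 0.217 and 0.059 CPM (-4.18 ± 0.53, adjusted p = 1.03e-07). Hoxd13 fell to 1.65 and 1.47 CPM (-1.49 ± 0.23, adjusted p = 1.66e-06), and Hoxd1 to 0.174 and 0.590 CPM (-1.91 ± 0.47, adjusted p = 0.000768). From day 2 to day 6, 5 of 30 tested members were higher and 10 lower, against 35.6% and 37% of all genes (72.6% in either direction). Scaled by library totals alone, the members split 5 and 11, and the share of higher genes among all genes called was 34.6% in place of 49.1%, with a median over all genes of -0.45. The higher members were Hoxb4, Hoxb6, Hoxb7, Hoxb8 and Hoxc11, and 6 of the 7 tested HoxD genes were among the lower. Without the first FLAG-WT library of day 6, 6 members were lower.

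From day 6 to day 10 FLAG-WT had few calls in this gene family. Hoxb4 was at 11.7 and 11.6 CPM at day 10, Hoxb7 at 2.95 and 4.60 CPM and Hoxb9, a paralog of the thoracic region, at 5.22 and 6.11 CPM, after 1.74 and 3.24 CPM at day 6. In that step 4 of 30 members were higher (Hoxb4, Hoxb9, Hoxc9 and Hoxc12) and 1 lower (Hoxa3), against 21.2% and 22.9% of all genes (44.2% in either direction). Leaving out any 1 of the 4 libraries left 1 or 2 higher members, and without 1 library the lower count was 0 to 2. Hoxc12 had 0 counts at day 6 and stood at 0.105 and 0.216 CPM at day 10. Compared with day 0, 10 members were higher and 11 lower at day 10, against 37% and 40.9% of all genes (77.9% in either direction). Scaled by library totals alone the split was 8 and 15, and the share of higher genes among all genes called was 36.8% in place of 47.5%, with a median over all genes of -0.53 in place of -0.12. All 7 tested HoxB members passed in one direction or the other: Hoxb13 was lower, and Hoxb3, Hoxb4, Hoxb6, Hoxb7, Hoxb8 and Hoxb9 higher. All 5 tested HoxD members of groups 9 to 13 were lower. HoxB made up 56.9% of the summed Hox level at day 10.

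**Figure D3:**
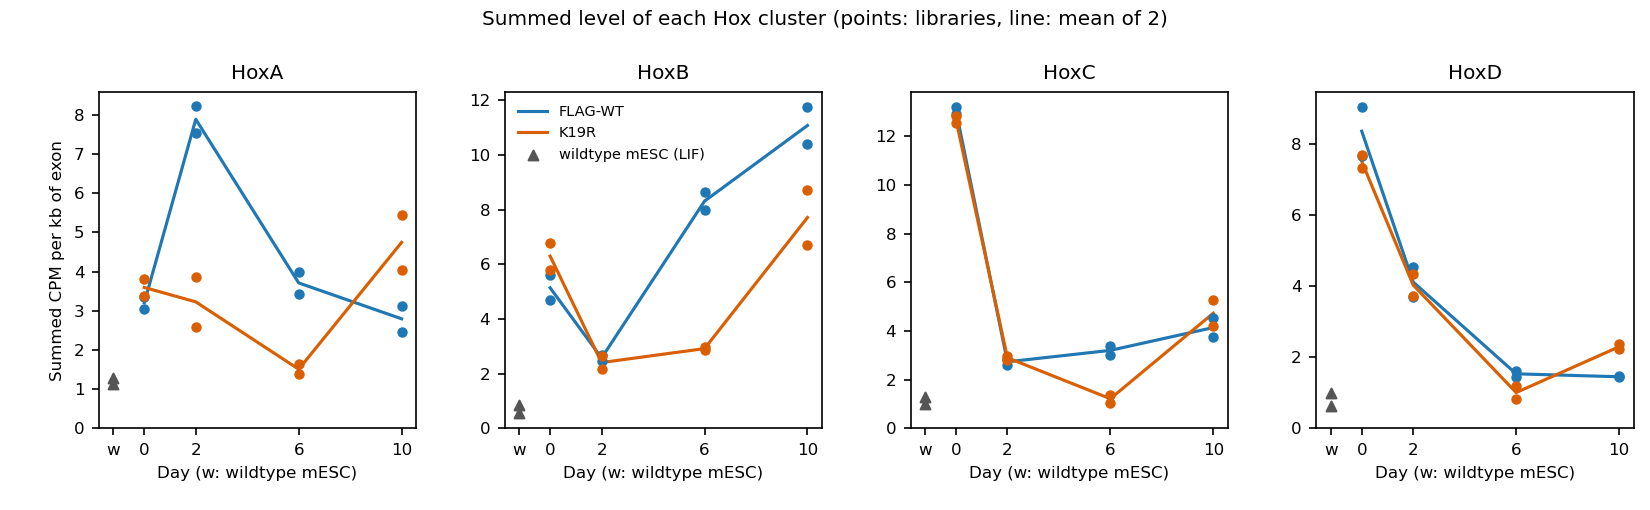
Summed level of each Hox cluster (CPM per kilobase of exon) by day in FLAG-WT and K19R, with wildtype mESCs at the left. Points are libraries and lines join the means of 2. HoxA reaches 7.88 at day 2 in FLAG-WT and 3.23 in K19R, and HoxB at day 6 is at 8.32 in FLAG-WT and 2.92 in K19R.

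In K19R the posterior genes of day 0 fell by day 2, the summed Hox level was lowest at day 6, and most members rose by day 10. At day 2 Hoxc12 and Hoxc13 were lower: Hoxc12 to 0.389 and 0.240 CPM at day 2 (-4.20 ± 0.31 SE on the log2 scale, edgeR adjusted p = 1.77e-11) and Hoxc13 to 1.85 and 1.82 CPM (-2.71 ± 0.18, adjusted p = 1.42e-12). Hoxb13 had 306 counts at day 0 and 2 at day 2, 191-fold lower (95% interval 52.4 to 1580). At day 2, 6 of 30 members were higher than at day 0 and 14 lower, against 28.5% and 27.9% of all genes (56.4% in either direction). Of the 12 tested members of groups 10 to 13, 10 were lower. Hoxa10 and Hoxa11, which rose in FLAG-WT, were lower (log2 changes -0.81 ± 0.32 and -2.37 ± 0.54). The Hoxa10 call (edgeR adjusted p = 0.0319) was lost in 4 of 10 alternatives, which were DESeq2 and leaving out either K19R library of day 0 or the first of day 2 (highest adjusted p 0.289), and the Hoxa11 call was lost in 0 of 10.

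From day 2 to day 6, 2 of 30 K19R members were higher (among them Hoxb4) and 13 lower, against 34.7% and 32.1% of all genes (66.8% in either direction). Without the first K19R library of day 2 or of day 6, 1 was higher. The summed level of all Hox genes reached 7.20 and 6.12 CPM per kilobase, below every other embryoid body library. From day 6 to day 10, 22 of 30 members rose and 1 (Hoxd1) fell, against 33.4% and 25.2% of all genes (58.5% in either direction), with a median of 2.04 against 0.07. Leaving out 1 library gave 16 to 23 higher members, and the Hoxd1 call was lost in 3 of those 4 settings. The rise reached all clusters: 8 of 9 tested HoxA members, 6 of 7 HoxB, 5 of 7 HoxC and 3 of 7 HoxD. Hoxc13 rose from 1.30 and 1.21 CPM to 4.92 and 6.30 CPM (log2 change 2.16 ± 0.22, edgeR adjusted p = 4.06e-09). Hoxa7 rose from 0.446 and 0.391 CPM to 2.46 and 2.53 CPM (2.56 ± 0.31, adjusted p = 1.12e-07). Hoxb4 rose from 2.71 and 3.73 CPM to 8.50 and 10.97 CPM (1.58 ± 0.20, adjusted p = 2.5e-07). Compared with day 0, 12 members were higher and 12 lower at day 10, against 38.1% and 35.8% of all genes (73.9% in either direction), and as in FLAG-WT the 5 tested HoxD members of groups 9 to 13 were lower.

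**Figure D4:**
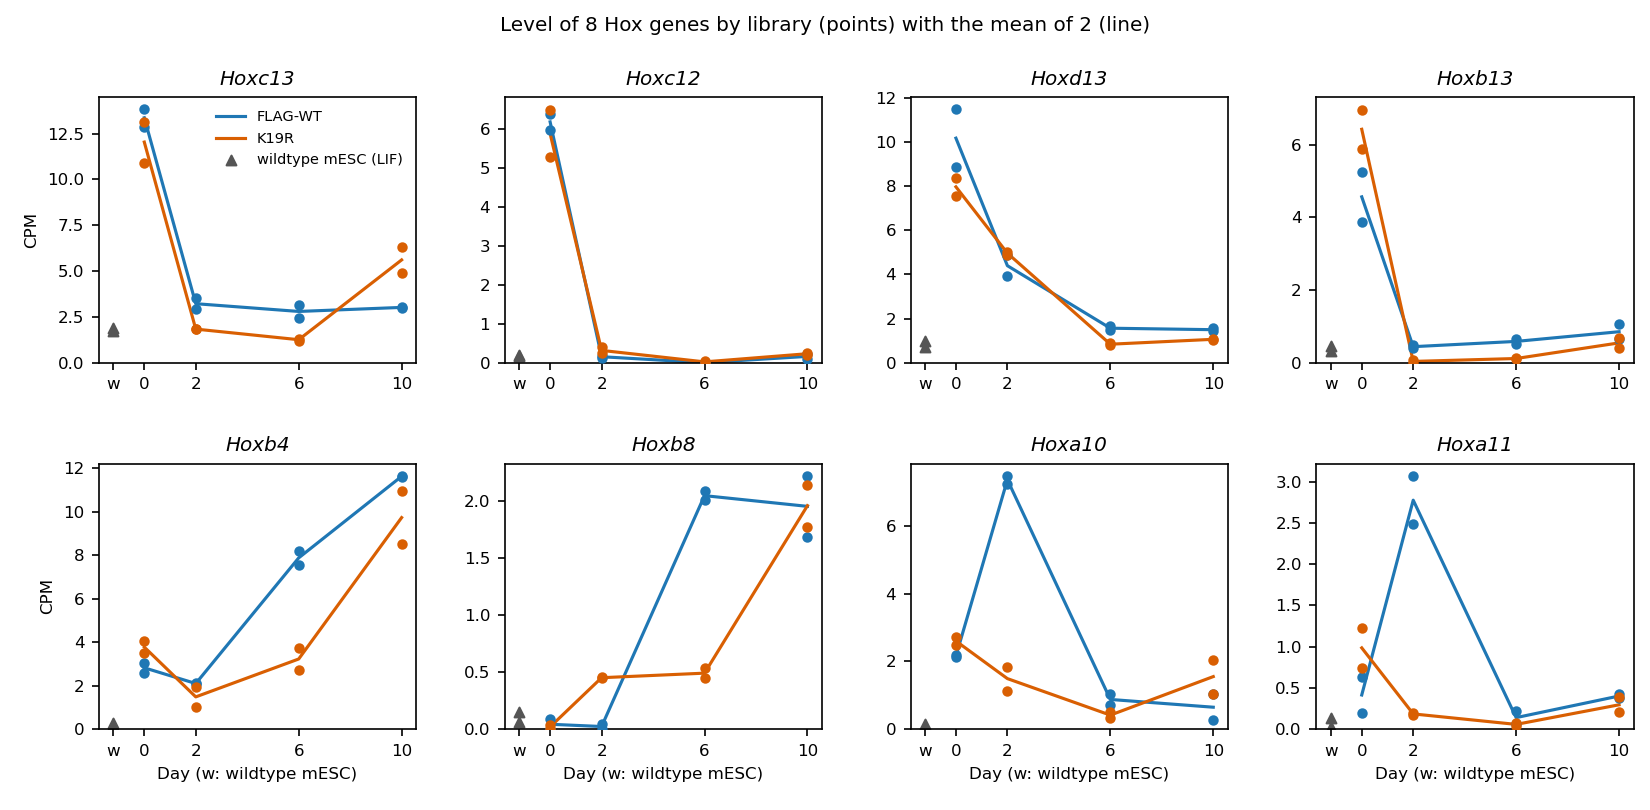
Level (CPM) of 8 Hox genes by day in FLAG-WT and K19R, with points for libraries, lines through the means of 2, and triangles (w) for wildtype mESCs. The upper row shows genes of groups 12 and 13 that were highest at day 0. In the lower row Hoxa10 and Hoxa11 peak at day 2 in FLAG-WT, and Hoxb4 and Hoxb8 are higher in FLAG-WT than in K19R at day 6.

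At day 2 K19R had less of Hoxa10 and Hoxa11 than FLAG-WT. Hoxa10 was at 1.13 and 1.85 CPM in K19R against 7.27 and 7.49 CPM in FLAG-WT (log2 change -2.31 ± 0.29 SE, edgeR adjusted p = 2.87e-07). Hoxa11 was at 0.194 and 0.171 CPM against 2.48 and 3.07 CPM (-3.89 ± 0.47, adjusted p = 1.77e-07). The lines did not overlap for either gene, and both had passed in a test of the same libraries. The antisense RNA Hoxa11os, whose exons overlap Hoxa11, was lower as well (-3.30 ± 0.53, adjusted p = 1.58e-05), and reads of the overlap cannot be assigned to either.

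Hoxc13 (1.85 and 1.82 against 2.92 and 3.52 CPM, log2 change -0.82 ± 0.21 SE) and Hoxd9 (0.389 and 0.960 against 1.74 and 2.13 CPM, -1.53 ± 0.33) were lower at day 2, and Hoxb13 had 2 counts in K19R against 23, 13.4-fold lower (95% interval 3.3 to 117). Hoxb8 and Hoxc11 were higher in K19R. Hoxb8 stood at 0.454 and 0.446 CPM against 0.0435 and 0 CPM (27 counts against 1, a ratio of 23.2, 3.83 to 951). Hoxc11 stood at 0.583 and 0.480 CPM against 0.131 and 0.0697 CPM (log2 change 2.40 ± 0.68, edgeR adjusted p = 0.00549). In all, 2 of 30 members higher and 6 lower stand against 20% higher and 21.8% lower among all genes (41.8% in either direction), and the median of the members was 0.03 against 0. Hoxc13 and Hoxc11 lost their calls without the second FLAG-WT library of day 2 (edgeR adjusted p = 0.0627 and 0.0881), which left 1 higher member. Markers of other cells differed on this day too, with lower sums in K19R for some lists and higher sums for others. Endoderm markers summed to 95.7 and 93.2 CPM in K19R against 739 and 731 CPM in FLAG-WT, with 9 of 10 lower and all detected. Fibroblast markers summed to 30.3 and 29.4 CPM against 231 and 235 CPM, with 3 of 6 tested higher and 2 lower, and caudal epiblast markers to 18.4 and 19.2 CPM against 49.2 and 52.9 CPM, with 1 of 8 higher and 1 lower. Paraxial mesoderm markers had a higher sum in K19R, at 78.18 and 90.65 CPM against 57.56 and 52.69 CPM. So did spinal cord markers (18.4 and 19.4 against 10.8 and 10.1 CPM) and forebrain and midbrain markers (341 and 367 against 279 and 291 CPM). Of these markers at most 1 of a list was at 0 in a library. A summed level can be set by a few genes of a list. For the lists with a higher sum in K19R, calls of single markers are not given. The part of these markers in the Hox differences was not tested.

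At day 6 the Hox genes that passed were all lower in K19R, and HoxB, the main cluster of FLAG-WT at this day, held the most of them. Lower members numbered 7 of 7 tested in HoxB, 4 of 7 in HoxC, 3 of 9 in HoxA and 1 of 7 in HoxD (Hoxd13). Hoxb4 was at 2.71 and 3.73 CPM against 8.21 and 7.55 CPM (log2 change -1.28 ± 0.21 SE, edgeR adjusted p = 8.97e-06). Hoxb7 was at 1.86 and 1.17 CPM against 3.78 and 4.42 CPM (-1.43 ± 0.28, adjusted p = 0.000106). Hoxb8 was at 0.446 and 0.533 CPM against 2.09 and 2.01 CPM (-2.05 ± 0.39, adjusted p = 6.78e-05), the opposite direction to day 2. Hoxb9 was at 1.01 and 0.747 CPM against 1.74 and 3.24 CPM (-1.46 ± 0.33, adjusted p = 0.000401). The lines did not overlap for any of these 4 genes, which had passed in a test of the same libraries.

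Hoxb6 stood at 0.0810 and 0.178 CPM in K19R against 1.00 and 0.531 CPM (log2 change -2.53 ± 0.76 SE) and Hoxb13 at 0.122 and 0.107 CPM against 0.522 and 0.649 CPM (-2.29 ± 0.64). Hoxc10, a paralog of the lumbar region and hindlimb, stood at 0.243 and 0.0711 CPM against 1.09 and 0.708 CPM (-2.55 ± 0.57, edgeR adjusted p = 0.000383). Hoxa5, needed for lung development, stood at 0.365 and 0.142 CPM against 0.739 and 1.24 CPM (-1.94 ± 0.53, adjusted p = 0.0028). Hoxc13 was at 1.30 and 1.21 CPM against 3.17 and 2.42 CPM (-1.17 ± 0.25) and Hoxd13 at 0.891 and 0.782 CPM against 1.65 and 1.47 CPM (-0.91 ± 0.29). For each of these 6 genes both K19R libraries were below both FLAG-WT libraries. All 6 had passed in a test of these same libraries, so the separation is not separate evidence.

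In all, 15 of 30 tested members were lower at day 6, where 30.1% of all genes were lower and 58.5% changed in either direction, and the median of the members was -1.22 (-1.17 with genes at 0 counts in a group at their bound) against 0.02. By position, 4 of 7 tested members of groups 1 to 4, 6 of 11 of groups 5 to 9 and 5 of 12 of groups 10 to 13 were lower. None was higher by edgeR, at an unadjusted p under 0.05 or by DESeq2, against 28.4% of all genes. Scaled by library totals alone, 12 members were lower, and the share of higher genes among all genes called was 72.9% in place of 48.6%, with a median over all genes of 0.38. Leaving out each library in turn gave 10 to 13 lower members, and Hoxb3 (log2 change -1.86 ± 0.76) and Hoxc4 (-1.04 ± 0.40) lost their calls in each of those 4 settings. The Hoxd13 call was lost in 3 of 10 alternatives (library totals, without the first FLAG-WT library and without the second K19R library; highest adjusted p 0.105).

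Markers of other cells differed between the lines on the same day. The summed level of 10 endoderm markers was 5121 and 5546 CPM in K19R against 14960 and 15350 CPM in FLAG-WT, with 9 of 10 lower and all detected in each library. Pluripotency markers summed to 659 and 724 CPM in K19R against 425 and 448 CPM, with 5 of 7 higher and 2 lower. Neuron markers summed to 75.6 and 84.5 CPM in K19R against 10.7 and 11.5 CPM, with all 6 tested of 7 higher, and 1 or 2 of the 7 were at 0 in each of these libraries. In the knock-in mESCs of day 0 the same neuron list summed to 251 to 275 CPM, so its sum does not mark neurons alone. The part of these markers in the Hox differences was not tested.

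**Figure D5:**
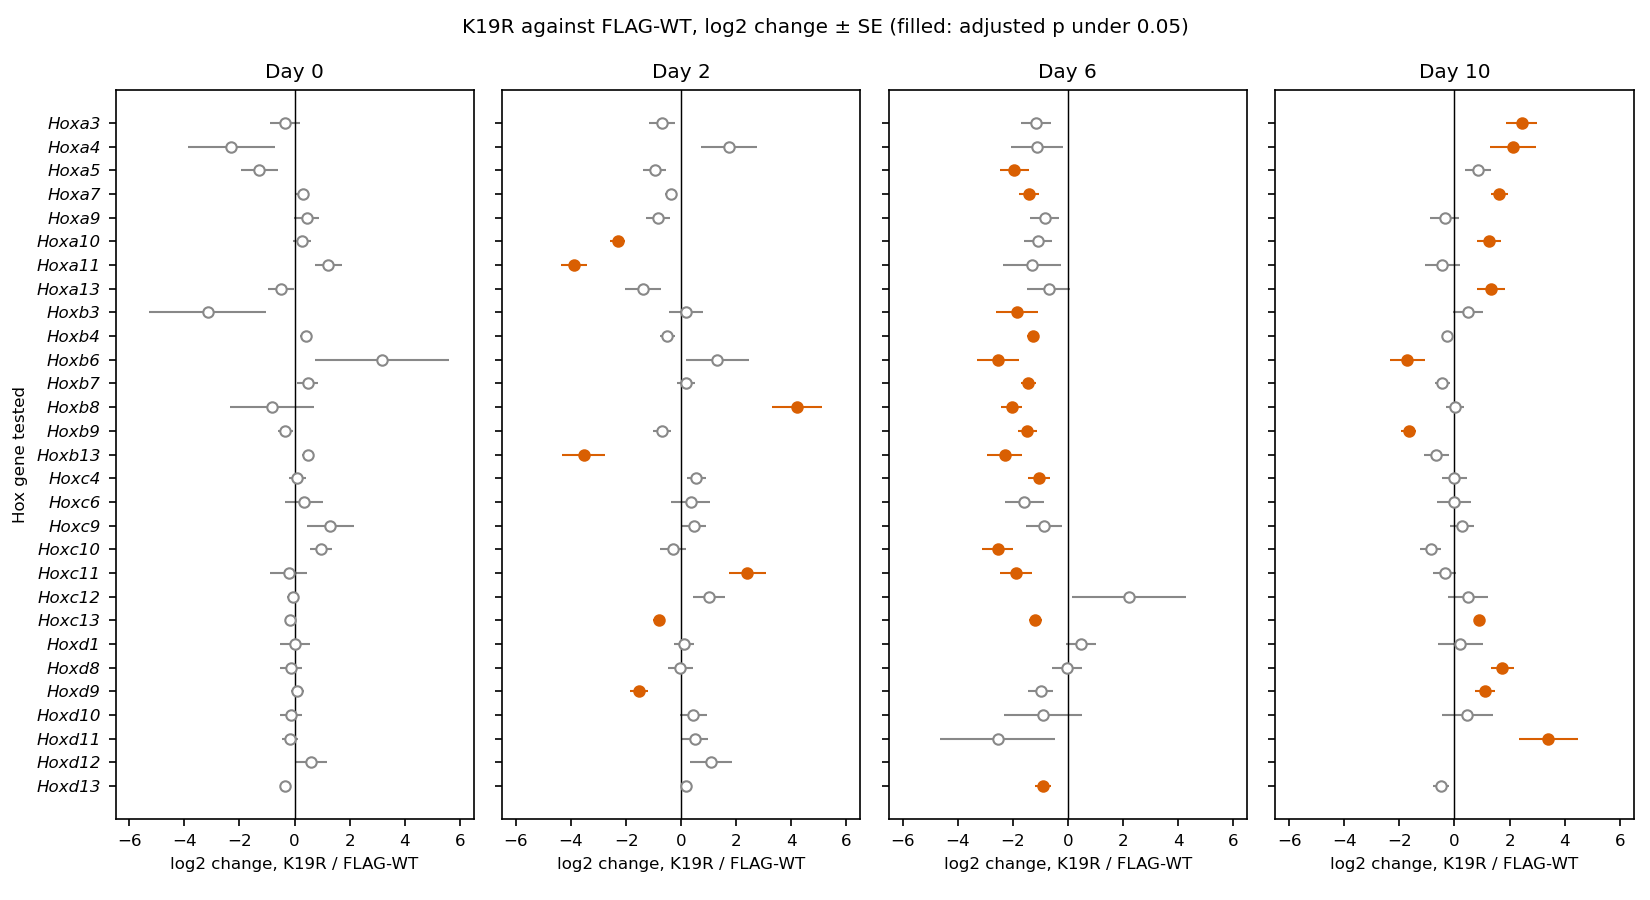
Log2 change of 29 tested Hox genes between K19R and FLAG-WT at days 0, 2, 6 and 10, with bars of 1 SE. Filled points passed an edgeR adjusted p under 0.05. No point is filled at day 0, all 14 filled points of day 6 are negative, and at day 10 there are 9 positive and 2 negative filled points. Hoxd12 has no point at days 6 and 10, where all libraries were at 0.

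At day 10 the direction was mixed. HoxA, HoxC and HoxD supplied the members that were higher in K19R, and HoxB the lower ones. Hoxa7, a trunk paralog, was at 2.46 and 2.53 CPM against 0.949 and 0.649 CPM (log2 change 1.63 ± 0.30 SE, edgeR adjusted p = 4.27e-05). Hoxa3, needed for the thymus and parathyroid, was at 0.806 and 1.59 CPM against 0.158 and 0.270 CPM (2.45 ± 0.56, adjusted p = 0.000569). Hoxd8 was at 2.02 and 2.27 CPM against 0.791 and 0.487 CPM (1.73 ± 0.41, adjusted p = 0.000761). Hoxc13 was at 4.92 and 6.30 CPM against 3.06 and 2.97 CPM (0.89 ± 0.20, adjusted p = 0.000418). K19R was above FLAG-WT in every library pair of these 4 genes, which had passed in a test of the same libraries.

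Hoxd11 stood at 0.282 and 0.386 CPM in K19R against 0.0527 and 0 CPM (16 counts against 1, a ratio of 12.5, 95% interval 1.93 to 522). Hoxa4 stood at 0.403 and 1.03 CPM against 0.105 and 0.216 CPM (log2 change 2.11 ± 0.83 SE), Hoxa10 at 1.05 and 2.06 CPM against 0.264 and 1.03 CPM (1.26 ± 0.44) and Hoxa13 at 1.25 and 1.03 CPM against 0.264 and 0.649 CPM (1.32 ± 0.52). Hoxd9 stood at 1.77 and 1.59 CPM against 0.633 and 0.919 CPM (1.11 ± 0.36). The lines did not overlap in these 5 genes, which had also passed in a test of the same libraries. The gap for Hoxa10 was 1.05 against 1.03 CPM. Their calls were lost in 1 to 4 alternatives each: the adjusted p over the alternatives reached 0.323 for Hoxa4, 0.287 for Hoxa10, 0.266 for Hoxa13, 0.102 for Hoxd9 and 0.0792 for Hoxd11.

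Hoxb9 was lower in K19R at day 10, at 2.22 and 1.33 CPM against 5.22 and 6.11 CPM (log2 change -1.67 ± 0.27 SE, edgeR adjusted p = 6.71e-06), as it was at day 6. Hoxb6 was at 0.0806 and 0.643 CPM against 1.27 and 1.08 CPM (-1.71 ± 0.62, adjusted p = 0.0212), and its call was lost in 5 of 10 alternatives, among them without the first K19R library of day 10 and without either FLAG-WT library (highest adjusted p 0.29). Hoxb4 was at 8.50 and 10.97 CPM against 11.7 and 11.6 CPM and Hoxb8 at 1.77 and 2.14 CPM against 1.69 and 2.22 CPM, and neither passed. So 9 of 30 members were higher and 2 lower, near the 33.2% higher among all genes and below the 25.2% lower (58.4% in either direction), with a median of 0.21 against 0.13. Scaled by library totals alone the split was 10 and 1, and 77% of all genes called were higher in place of 56.9%, with a median over all genes of 0.44. HoxA had 5 of its 9 tested members higher, and HoxB 2 of 7 lower. The summed Hox level was 17.2 and 21.8 CPM per kilobase in K19R and 18.9 and 20.1 in FLAG-WT. With TMM scaling the lines thus overlapped in the sum while differing in single members. Without division by length, the mean sum was 47.0 CPM in K19R and 45.5 CPM in FLAG-WT. By library totals alone it was 46.9 CPM in K19R and 36.9 CPM in FLAG-WT.

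Endoderm markers summed to 18460 and 19090 CPM in K19R and 28830 and 29380 CPM in FLAG-WT at day 10, with 3 of 10 higher and 3 lower. Markers of caudal epiblast and neuromesodermal progenitors, cells that build the trunk and tail, summed to 132 and 162 CPM in K19R against 36.2 and 47.4 CPM, with 6 of 8 higher. In the FLAG-WT libraries 3 and 5 of these 8 were at 0, and in the K19R libraries all were detected. Sums of other lists differed too. Among them, fibroblast markers summed to 189 and 207 CPM in K19R against 113 and 107 CPM. Lateral plate, limb and extraembryonic mesoderm markers summed to 62.2 and 77.7 against 32.5 and 30.2 CPM. Intestine and hindgut markers went the other way (217.7 and 237.2 against 331.5 and 321.1 CPM). The part of all these markers in the Hox differences was not tested.

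The end members of the clusters, paralog groups 1 and 13, held members with different profiles. Hoxb1, known from the fourth segment of the hindbrain, was left out of the tests: it ranged from 0 to 0.377 CPM, with its highest values in K19R at day 2 (0.194 and 0.377 CPM) and 17 counts there against 3 in FLAG-WT (a ratio of 4.88, 95% interval 1.41 to 26.0). Hoxd1 was at 1.33 and 1.58 CPM in K19R and 1.31 and 1.39 CPM in FLAG-WT on that day and did not pass between the lines (log2 change 0.10 ± 0.35 SE). Hoxa13, known from the limb and the genital tract, was at 0.667 and 1.198 CPM in FLAG-WT and 0.671 and 0.658 CPM in K19R at day 0. Per kilobase it was at 0.266 to 0.485 CPM in these 4 libraries, below Hoxb13 (1.76 to 3.15), Hoxc13 (4.44 to 5.63) and Hoxd13 (3.05 to 4.63).

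Several other members were lower at day 10 than in the knock-in mESCs in both lines, among them Hoxc4, Hoxd10, Hoxd11 and Hoxd12. Hoxd11 was at 3.46 and 3.04 CPM in FLAG-WT and 3.28 and 2.54 CPM in K19R at day 0, and at 0.305 and 0.418 CPM and 0.681 and 0.343 CPM at day 2. Hoxd10 was at 1.63 and 1.84 CPM and 1.45 and 1.74 CPM at day 0, and at 0.523 and 0.558 CPM and 0.421 and 1.06 CPM at day 2. Hoxd12 had 0 counts in all 8 embryoid body libraries of days 6 and 10, where Hoxd10 did not exceed 0.300 CPM. Hoxd13 kept 1.42 and 1.57 CPM in FLAG-WT and 1.05 and 1.07 CPM in K19R at day 10. Hoxc4, at the 3' end of HoxC, was at 2.83 and 1.56 CPM in FLAG-WT and 1.79 and 2.96 CPM in K19R at day 0, and at 0.949 and 0.757 CPM and 0.645 and 1.07 CPM at day 10, with overlap between the lines on both days. At day 2 it stood at 1.13 and 1.12 CPM in FLAG-WT, a call that was lost in 4 of 10 alternatives, and at 1.26 and 2.02 CPM in K19R, where neither Hoxc4 nor Hoxd12 passed against day 0 (edgeR adjusted p = 0.173 and 0.0612).

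The change over time was also compared between the lines directly, as an interaction term. From day 0 to day 2, Hoxa10, Hoxa11, Hoxb13 and Hoxd9 had a lower change in K19R than in FLAG-WT (log2 differences of -2.58 ± 0.42, -5.12 ± 0.68, -4.04 ± 0.82 and -1.64 ± 0.41 SE) and Hoxc11 a higher one (2.61 ± 0.98, edgeR adjusted p = 0.0492). In all, 5 lower and 1 higher of 30 stand against 14.4% and 12.7% of all genes (27.1% in either direction), with a median of -0.33 against 0. The Hoxc11 call was lost in 7 of the 8 settings that left out 1 library, and held without the first FLAG-WT library of day 0 (highest adjusted p over its alternatives 0.462).

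From day 2 to day 6 the change of 7 members was lower in K19R: Hoxb6, Hoxb7, Hoxb8, Hoxc4, Hoxc10, Hoxc11 and Hoxd13. Hoxb8 had a log2 difference of -6.26 ± 0.94 SE (edgeR adjusted p = 5.47e-06), with 1 count in FLAG-WT at day 2. Hoxb7 had -1.61 ± 0.44 (adjusted p = 0.0037). The 7 of 30 stand against 21.3% of all genes, while 23.2% were higher and 44.5% changed in either direction. No member was higher by edgeR or DESeq2, and 1 was at an unadjusted p under 0.05. The median of the members was -1.01 (-0.98 without members at 0 counts in a group) against 0.08. Without the first FLAG-WT library of day 6, 4 members passed. Scaled by library totals alone, 5 were lower and 2 higher (among them Hoxa10), and 80.8% of all genes called were higher in place of 52.1%, with a median over all genes of 0.45.

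From day 6 to day 10 the change of 13 members was higher in K19R, against 24.4% of all genes (39% in either direction), with a median of 1.53 against 0.12. Among them were Hoxa3, Hoxa4, Hoxa5, Hoxa7, Hoxa10, Hoxb3, Hoxb4, Hoxb7, Hoxb8, Hoxc13, Hoxd8 and Hoxd9. Hoxa7 had the smallest p in HoxA (log2 difference 3.04 ± 0.48 SE, edgeR adjusted p = 1.12e-05), and Hoxc13 had 2.07 ± 0.32 (adjusted p = 8.37e-06). None was lower by edgeR, at an unadjusted p under 0.05 or by DESeq2, against 14.6% of all genes. Without the first FLAG-WT library of day 6, 8 members passed, and Hoxa4, Hoxa10, Hoxb3, Hoxb7 and Hoxd8 did not. Over the 13 alternatives of this interval, Hoxb3 lost its call in 12, Hoxd8 in 10, Hoxb7 in 9 and Hoxa4 in 8, with RLE size factors, library totals and DESeq2 among them for all 4, and Hoxa10 in 1.

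Genes that work with or upon the Hox clusters were read from lists, for K19R against FLAG-WT at day 10. Of 9 cofactors of the TALE class, homeodomain proteins that bind DNA with Hox proteins, 4 were higher and 3 lower (median -0.06). Over all genes 33.2% were higher and 25.2% lower, with a median of 0.13. Meis1 was at 9.83 and 10.5 CPM in K19R against 30.6 and 31.2 CPM in FLAG-WT (log2 change -1.61 ± 0.12 SE, edgeR adjusted p = 2.01e-11), and it was lower at days 2 (-1.07 ± 0.13) and 6 (-1.09 ± 0.14) too. Meis2 was lower at day 6, at 3.81 and 3.52 CPM against 14.3 and 15.3 CPM (-2.01 ± 0.13, adjusted p = 4.11e-13), and did not pass at day 10 (-0.08 ± 0.11). Pknox2 (2.96 ± 0.47) and Pbx3 (1.57 ± 0.18) were higher at day 10.

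Of the Cdx genes and signals of axial extension, which act upstream of Hox genes in the tail bud, 7 of 11 tested were higher at day 10, where 33.2% of all genes were higher. At day 6, 6 were higher and 1 lower, against 28.4% and 30.1% of all genes. Most of the caudal epiblast and neuromesodermal progenitor markers are also in this list, so the counts of those markers are not separate evidence. Cdx2, a direct activator of central Hox genes, was at 22.6 and 26.4 CPM against 17.3 and 11.7 CPM at day 10, a log2 change of 0.75 ± 0.15 (SE; edgeR adjusted p = 0.000123). Cdx2 was the lower gene of day 6, at 7.50 and 8.68 CPM against 18.1 and 14.7 CPM (-1.02 ± 0.16, adjusted p = 4.12e-06). T, the brachyury gene of the primitive streak, had 235 counts in K19R and 0 in FLAG-WT at day 10 (at least 30.5-fold higher), Fgf8 had 267 against 1 (a ratio of 208, 95% interval 37.0 to 8240) and Nkx1-2 had 29 against 0 (at least 3.76-fold higher). Cdx1 did not exceed 0.383 CPM in any knock-in library, and Cdx4 stood at 0.0806 and 0.0429 CPM in K19R at day 10 and at 0 in FLAG-WT.

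Next to the clusters, Evx1, a homeobox gene at the 5' end of HoxA, was at 2.58 and 3.00 CPM in K19R against 0.105 and 0.0541 CPM at day 10 (134 counts against 3, a ratio of 34.8, 95% interval 11.6 to 171), and at day 6 it was higher too (2.28 ± 0.45 SE on the log2 scale, edgeR adjusted p = 9.13e-05). Evx2, beside HoxD, held at most 0.0685 CPM in any library. Of 14 other neighbours 8 were higher and 1 lower at day 10, against 33.2% and 25.2% of all genes. Among the higher were Ttll6 (3.39 ± 0.28), Calcoco2 (2.99 ± 0.26) and Skap1 (1.67 ± 0.70), all near HoxB. Of 3 tested noncoding RNAs of the clusters, 1 was lower, Hoxa11os (-2.16 ± 0.75). Of 5 tested ParaHox genes 1 was higher. Both counts stand against the same shares of all genes.

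Of 15 retinoic acid pathway genes, 5 were higher and 3 lower at day 10 (median 0.31), led by Stra8 (3.08 ± 0.44), Rarg (2.32 ± 0.11) and Cyp26b1 (2.15 ± 0.59). Of 12 PRC2 subunits 3 were higher and 3 lower (median 0.06), with Phf19 at 0.96 ± 0.23, Mtf2 at 0.74 ± 0.10 and Aebp2 at -0.57 ± 0.07. Of 12 canonical PRC1 subunits, which bind the PRC2 mark, 5 were higher and 4 lower (median 0.08), with Phc1 at 1.85 ± 0.10 and Bmi1 at 1.42 ± 0.13. Of 9 trithorax genes and demethylases, which act against Polycomb, 3 were higher and 3 lower (median -0.10), with Kdm6b at -0.67 ± 0.08, Ash2l at 0.45 ± 0.07 and Ash1l at 0.39 ± 0.11. These counts stand against 33.2% higher and 25.2% lower among all genes, with a median of 0.13. Eed itself did not pass at days 6 (0.05 ± 0.08) or 10 (0.11 ± 0.08).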

How the data were processed

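Per the file headers, the authors counted read pairs over exons by gene name with featureCounts, in version 1.6.3 (16 knock-in libraries) or 1.6.4 (2 wildtype mESC libraries), against GENCODE vM19 (GRCm38), without a strand option. STAR 2.7.0c, Trim Galore 0.6.0, FastQC 0.11.7 and bcl2fastq 2.17 are listed in the submitters' processing notes. The deposited values are raw counts.

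Counts were tested with edgeR 4.0.16 (quasi-likelihood, TMM, filterByExpr with a minimum of 10 and a total of 15, in R 4.3.3) in one fit of 16 libraries (19092 genes, 8 residual degrees of freedom), and wildtype mESCs in a fit of 18 (19296 genes, 9 degrees of freedom). P-values were adjusted by Benjamini-Hochberg over all tested genes, and 0.05 was the threshold. Each comparison had 2 libraries a group. Statements that groups did or did not overlap describe the same libraries as the tests and are not separate evidence. The share of all genes without overlap was not computed. Ratios from few counts carry exact 95% intervals, and the floor was 3 counts per library. These cover counting error only. The script was tested on simulated data. Alternatives were RLE size factors, library totals, no filter, a replicate block, DESeq2 1.42.0, only the libraries compared, and each library left out.

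Of the 39 members, 1 is counted but not reported here by name, as is 1 gene of another list. Values per library are given for the 3 highest members of each cluster, the 5 called members with the largest change on each day between the lines, and paralog groups 1 and 13. From other lists, at most 3 genes called at day 10 were named, besides Eed and the Cdx, Meis and Evx genes. The members and lists were chosen with earlier results of these data known. Promoters came from RefSeq.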

Additional observations from a re-analysis of the deposited data

Results flagged for a closer look

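The change over time differed between K19R and FLAG-WT by a direct test of that difference (edgeR interaction term, adjusted over all genes) for 6 Hox genes from day 0 to day 2, for 7 from day 2 to day 6 and for 13 from day 6 to day 10, of 30 tested in each interval. Over all genes 27.1%, 44.5% and 39% passed. The 3 intervals share libraries, so they are not separate evidence.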

How the results depend on the processing

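Of 225 calls among 480 gene and comparison pairs, 148 held under every alternative run, and no called value changed sign. The alternatives gave 4955 values, of which 236 lost a call and 53 gained one. At day 0, K19R against FLAG-WT gave 1 higher member (Hoxb13) with only the 4 libraries compared. At day 10, 1 member was lower with library totals and 1 with DESeq2. From day 6 to day 10 in FLAG-WT, 2 members were higher with only the 4 libraries and 0 lower with DESeq2. The single lower member of that interval in K19R lost its call without a filter, with the replicate block and with DESeq2 (0 lower members each). With only the 4 libraries there were also 0, but 20 Hox genes were tested there and that gene was not among them. In the interactions, the higher member of days 0 to 2 became 0 with the replicate block and DESeq2, and library totals gave 2 higher members for days 2 to 6. With library totals the summed Hox level in FLAG-WT was 69.73, 46.84, 32.24 and 36.88 CPM on days 0, 2, 6 and 10, and 69.35 CPM in K19R mESCs. The cause of these shifts was not tested.

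Leaving out 1 library at a time gave these ranges of members, for the counts that moved most in proportion. Other counts moved too: fewer members were higher in K19R at day 10 in each of those settings. K19R against FLAG-WT had 1 to 3 higher at day 2, and 1 to 3 lower at day 10. FLAG-WT had 7 to 9 lower from day 0 to 2, 6 to 10 lower from day 2 to 6, and 1 to 2 higher and 0 to 2 lower from day 6 to 10. K19R had 1 to 2 higher from day 2 to 6 and 0 to 1 lower from day 6 to 10. The interactions had 0 to 1 higher for days 0 to 2, 4 to 9 lower for days 2 to 6 and 8 to 13 higher for days 6 to 10. Replicate numbers did not pair the libraries: deviations of libraries with the same number correlated at -0.03 to 0.029 over 12 comparisons. With the replicate block 6 calls were lost and 0 gained. At 8.41 to 68.0 summed Hox CPM a library, single members often rest on few counts, which limits what could be detected.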
